A study of Rattus norvegicus with 6 samples.

Results

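The BMP and activin signalling genes described here are 10 genes chosen by name: the ligand genes Bmp2, Bmp4 and Bmp6, the activin subunit gene Inhba, the secreted inhibitor genes Grem1 and Fst, the target genes Id1, Id2 and Id3, and the intracellular inhibitor gene Smad6. All 10 were found in the expression table, each on a single row, among 33589 rows. They were followed in rat mesenchymal stem cells (MSCs) from bone marrow, the stromal cells that give rise to bone, cartilage and fat, after 48 h inside a hydrogel named SA in the labels. The gel was soft (2 kPa) in 3 libraries and stiff (18 kPa) in 3 libraries, and polyA RNA was sequenced after the cells had been taken out of it. The design text of the series speaks of quadruplicates, and the 3 libraries per group at hand were analysed. The labels give the same medium, low glucose with serum, for both groups, and name no strain, age, added BMP or inhibitor. They also do not say whether replicates were separate cultures or animals, so each p-value reflects no more than the spread among these libraries, which may be technical.

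Bone morphogenetic proteins (BMPs) and activins are secreted dimers of the TGF-beta superfamily. They bind paired type I and type II serine/threonine kinase receptors, and the activated receptor phosphorylates receptor Smads, which join Smad4 and enter the nucleus. BMPs act mainly through Smad1, Smad5 and Smad9 and induce the Id genes, whereas activins act through Smad2 and Smad3. In marrow stroma BMPs are known for driving bone and cartilage formation, and secreted antagonists such as gremlin, noggin and follistatin limit how much ligand reaches the receptor.

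Each library held between 14966354 and 16711527 reads, as recovered from the deposited FPKM (sequenced fragments normalised to gene length and library size). The summed FPKM was higher in the stiff libraries, at 467372 to 478304, than in the soft ones, at 452787 to 457306. Soft replicate 1 stood apart, at -20.9 on the first principal component against -8.22 and -7.98 for the other soft libraries, and with 2.15% mitochondrial reads against 2.85% to 3.33% in the other 5 libraries. Of 10 MSC markers, 9 were at 1 FPKM or more and Lepr was below it. The summed level of this list ran from 4915 to 6311 FPKM in the soft and from 5342 to 6499 FPKM in the stiff gel. Most of this sum was Col1a1 (means of 3061 and 3579 FPKM) and Col1a2 (803 and 694 FPKM). Col1a2 varied by 52.1% among the soft and 42.0% among the stiff libraries. None of the 9 passed limma's test. The stiff libraries of Thy1 and Itgb1 lay above all soft ones and those of Pdgfrb below, and the other markers overlapped. Of all genes tested 22.6% were parted in this way. Macrophage and leukocyte markers were present too: 7 of the 8 listed were in the table, all above 1 FPKM, with Ptprc at 2.15 to 3.18 FPKM. Their summed level was 334.7 to 341.6 FPKM in the soft and 300.2 to 314.6 FPKM in the stiff gel. Among them Cd68 and Cd53 fell and Adgre1 rose by limma's test. The most abundant marker, Lyz2, had the largest drop in mean level, from 148.9 FPKM (soft) to 119.4 FPKM (stiff). Its stiff libraries all lay below its soft ones, but it did not pass (limma adjusted p = 0.0606). Limma's voom on recovered reads called 1 of the 7 markers higher and 3 lower, where it called 1.49% and 1.01% of all genes tested. For Ptprc, Csf1r and Cd14 the groups overlapped, with stiff over soft ratios of means of 0.896, 1.01 and 1.01. The lower sum was thus not shared by all markers of the list. In bulk RNA, fewer cells of a type and less RNA per cell cannot be told apart, and the part of these cells in the results below was not tested. Endothelial markers summed to at most 1.27 FPKM and erythroid markers to at most 0.957 FPKM in any library, with the globin genes Hbb and Hba-a1 listed at 0.

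The comparison of stiff with soft gel asks whether these genes responded to the stiffness around the cells. None of the 10 passed the test. On the log2(FPKM + 1) scale of the test, the largest differences were those of Bmp6, at 2.77 ± 0.680 FPKM in the soft and 5.52 ± 0.542 FPKM in the stiff gel, and of Grem1, at 508.7 ± 45.8 and 674.5 ± 44.6 FPKM (SD, n = 3 per group). Both just missed the threshold. The BMP target genes Id1, Id2 and Id3 and the feedback inhibitor gene Smad6 had overlapping groups and differences close to 0. The test was limma on log2(FPKM + 1), a scale that understates the change of low genes, with Benjamini-Hochberg adjustment at 0.05 over the 12713 genes whose mean reached 1 FPKM. All 10 genes passed that filter on level. With limma 0 of 10 were called, where 1.43% of all genes tested were called. At an unadjusted p under 0.05 there were 2 of 10, against 15.4% of all genes tested, and limma's voom on recovered reads called 2, against 2.5% of all genes tested. The soft and stiff libraries did not overlap for 4 of the 10 genes, 3 with stiff above and 1 with stiff below. Of all genes tested 22.6% were parted in this way, 11.7% with stiff above and 10.9% with stiff below. The median log2 fold change of the 10 was 0.04, and that of all genes tested was 0.0013.

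**Figure D1:**
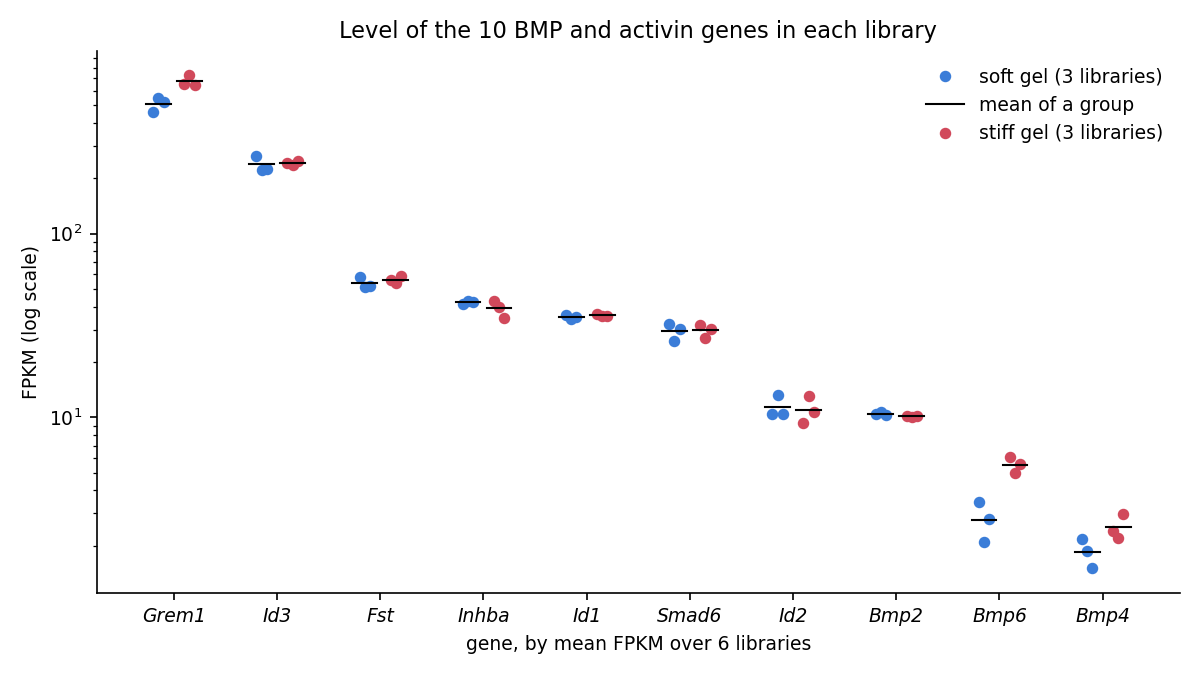
FPKM of each of the 10 genes in each library, on a log axis, with genes in order of their mean over the 6 libraries. Blue points are the 3 soft libraries, red points the 3 stiff libraries, and black bars the group means. Grem1 lies above all others in every library, and the stiff points of Grem1, Bmp6 and Bmp4 lie above the soft ones.

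The order of levels, per length as the table gives it, was the same in both gels: Grem1, Id3, Fst, Inhba, Id1, Smad6, Id2, Bmp2, Bmp6 and Bmp4. In soft gel the ranges of Id2 and Bmp2 overlapped, as did those of Bmp6 and Bmp4. In stiff gel the overlaps were between Inhba and Id1 and between Id2 and Bmp2. Among all genes tested, Grem1 stood at place 99 by mean FPKM and Id3 at place 276, while Bmp6 and Bmp4 stood at 9458 and 11084. These places rest on the gene lengths in the table, which range among the 10 from 958 bases for Id1 to 3809 bases for Grem1.

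Stretches of RefSeq sequence are shown here to set the regions before the start of the genes with the smallest adjusted p among the 10, Grem1 and Bmp6, beside those of the target genes Id1 and Id3. Of the 10 genes, 7 had an entry in the table of RefSeq promoters (build GRCr8), and Bmp2, Fst and Smad6 did not. Each line gives the 250 bases before the annotated start, 5′ to 3′ on the gene's strand. Grem1 is at chr3:120978320-120978569 (minus strand), Bmp6 at chr17:26675262-26675511 (minus), Id1 at chr3:161671314-161671563 (plus) and Id3 at chr5:153656041-153656290 (plus). Capitals mark matches to the motifs searched.
Grem1: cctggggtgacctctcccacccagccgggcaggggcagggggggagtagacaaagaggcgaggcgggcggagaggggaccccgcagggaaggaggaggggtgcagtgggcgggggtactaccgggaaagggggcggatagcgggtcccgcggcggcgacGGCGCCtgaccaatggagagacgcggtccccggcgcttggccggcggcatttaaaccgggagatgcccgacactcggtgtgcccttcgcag
Bmp6: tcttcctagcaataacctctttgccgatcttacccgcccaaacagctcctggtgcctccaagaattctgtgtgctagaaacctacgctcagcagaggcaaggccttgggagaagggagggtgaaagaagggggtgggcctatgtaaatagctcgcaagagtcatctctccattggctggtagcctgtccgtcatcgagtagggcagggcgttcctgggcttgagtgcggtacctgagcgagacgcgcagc
Id1: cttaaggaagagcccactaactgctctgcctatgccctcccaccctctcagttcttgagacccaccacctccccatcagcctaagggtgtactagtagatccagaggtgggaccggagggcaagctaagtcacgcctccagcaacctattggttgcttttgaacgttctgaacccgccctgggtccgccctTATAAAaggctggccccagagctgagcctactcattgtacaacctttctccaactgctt
Id3: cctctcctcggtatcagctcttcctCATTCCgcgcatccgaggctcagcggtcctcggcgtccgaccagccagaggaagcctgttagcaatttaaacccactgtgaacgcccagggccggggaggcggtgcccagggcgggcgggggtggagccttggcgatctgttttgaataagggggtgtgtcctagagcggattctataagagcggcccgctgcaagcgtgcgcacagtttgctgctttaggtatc

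Motifs were searched on both strands: GGCGCC, a GC-rich sequence bound by BMP Smads; CAGAC, the core of the Smad box; CATTCC, the core of the TEAD site; TATAAA, the TATA box; and the CArG box bound by SRF. No match overlaps another in the 7 members. GGCGCC was found in Grem1, starting 91 bases before the start, and in 8.69% of all 33469 promoters of this length. CATTCC was found in Id3, 225 bases before the start, and in 12.1% of all promoters. The TATA box sequence lay 59 bases before the start of Id1 and 40 bases before that of Inhba, and in 12.9% of all promoters. CAGAC occurred in Bmp4 only among the 7, at 200 and 35 bases before the start, and in 42.9% of all promoters. No match to any of these motifs was found in this window of Bmp6 or Id2, and no CArG box in any of the 7, against 501 of the 33469 promoters. The windows of Grem1 and Bmp6 were 72.0% and 56.4% G and C, with a median of 51.2% over all promoters. A match describes letters only, and not a bound site.

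Among the ligands, Bmp6 differed most. BMP6 is an osteogenic ligand that is also known for controlling hepcidin and so iron balance. Its FPKM, given here and below in the order of replicates 1 to 3, was 3.45, 2.09 and 2.79 in soft gel and 6.05, 4.96 and 5.54 in stiff gel. The lowest stiff library was well above the highest soft library, and the spread was widest among the soft ones. The ratio of means was 1.99, and the log2 fold change 0.80 (SE 0.145, 95% interval 0.46 to 1.14), with a limma adjusted p of 0.0517. The gene was read 52 to 141 times per library. Counting error alone gives a coefficient of variation of about 12.0% in soft and 8.66% in stiff, and the observed values were 24.5% and 9.83%. Without soft replicate 1 the log2 fold change was 0.93 and passed (adjusted p = 0.0330). Leaving out any of the other 5 libraries gave 0.66 to 0.86, none of which passed (adjusted p between 0.107 and 0.181).

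Bmp2, a ligand long known as an inducer of bone formation, differed little. Its FPKM was 10.4, 10.7 and 10.2 in soft and 10.2, 10.1 and 10.1 in stiff gel. All 3 stiff libraries lay below all 3 soft ones, but by little: the log2 fold change was -0.04 (95% interval -0.18 to 0.10, adjusted p = 0.803). The spread within a group, 2.34% in soft and 0.612% in stiff, was below the 4.26% and 4.40% that counting error gives at 486 to 561 reads.

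Bmp4, a close relative of Bmp2, was the lowest of the 10. Its FPKM was 2.18, 1.87 and 1.51 in soft and 2.39, 2.21 and 2.96 in stiff gel. The stiff libraries lay above the soft ones, with the nearest pair at 2.18 and 2.21 FPKM. The ratio of means was 1.36 and the log2 fold change 0.30 (95% interval -0.02 to 0.63, adjusted p = 0.347), at 53 to 107 reads per library. By ratio of means, and with voom (log2 fold change 0.43 against 0.39), Bmp4 thus stood above Grem1.

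Summed over these 3 BMP ligand genes, the level was 16.1, 14.7 and 14.5 FPKM in the soft and 18.7, 17.3 and 18.6 FPKM in the stiff gel. Bmp6 made up 14.2% to 21.5% of that sum in soft and 28.7% to 32.4% in stiff gel. These sums and shares are given as a description, with no test.

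Inhba encodes the beta A subunit, whose homodimer is activin A. Its FPKM was 41.4, 42.8 and 42.4 in soft and 42.7, 40.0 and 34.6 in stiff gel. The groups overlapped, and stiff replicate 3 was lower than all others. The log2 fold change was -0.11 (95% interval -0.30 to 0.08, adjusted p = 0.552), and -0.03 without stiff replicate 3.

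Grem1 encodes gremlin 1, a secreted antagonist of the DAN family that binds BMP2 and BMP4. Its FPKM was 458.1, 547.3 and 520.8 in soft and 652.4, 725.9 and 645.4 in stiff gel. Every stiff library lay above every soft one, and soft replicate 1 was the lowest. The ratio of means was 1.33, and the log2 fold change 0.41 (SE 0.0796, 95% interval 0.22 to 0.59), with a limma adjusted p of 0.0618. At 29288 to 44687 reads per library, counting error gives a coefficient of variation of 0.560% in soft and 0.494% in stiff, while libraries of a group varied by 9.01% and 6.61%. Leaving out 1 library at a time gave 0.33 to 0.46, none of which passed (adjusted p between 0.0798 and 0.192), and after quantile normalization the log2 fold change was 0.28 (adjusted p = 0.168). For Grem1 the spread between libraries, not depth, set the precision.

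Grem1 exceeded the summed BMP ligand genes of the list, Bmp6 included, by a wide margin in each library. Its FPKM was 28.5, 37.3 and 35.8 times the summed FPKM of Bmp2, Bmp4 and Bmp6 in soft and 35.0, 42.1 and 34.6 times in stiff gel. These ratios overlapped between the groups, with the lowest in soft replicate 1. They compare RNA per length, not protein, and would be lower with Bmp5 in the sum, which alone was at 16.5 and 17.0 FPKM.

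Fst encodes follistatin, which binds activin and keeps it from its receptors. Its FPKM was 58.1, 51.2 and 52.1 in soft and 55.9, 53.6 and 58.4 in stiff gel. The groups overlapped throughout, and the log2 fold change was 0.06 (95% interval -0.10 to 0.21, adjusted p = 0.736). Fst was at 1.20 to 1.40 times the level of Inhba in the soft libraries and at 1.31 to 1.69 times in the stiff ones, where stiff replicate 3, low in Inhba, gave the highest ratio.

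**Figure D2:**
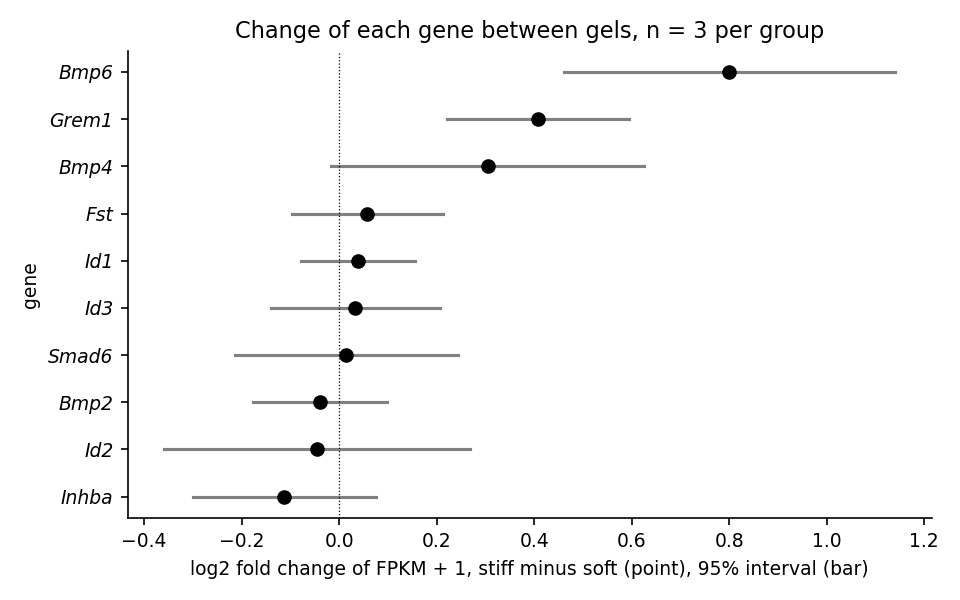
Log2 fold change of FPKM + 1 in stiff against soft gel for the 10 genes (points) with the 95% interval of the limma fit (bars), n = 3 per group. The intervals of Bmp6 and Grem1 lie above 0 before adjustment over all genes, and those of the other 8 include 0.

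The Id genes encode helix-loop-helix proteins without a DNA-binding region, which hold E proteins in inactive dimers, and are among the most direct targets of BMP Smads. Id1 was at 35.9, 34.1 and 35.2 FPKM in the soft and 36.4, 35.8 and 35.8 FPKM in the stiff gel. This was the tightest of the 3, with a log2 fold change of 0.04 (95% interval -0.08 to 0.16, adjusted p = 0.772) and -0.01 when libraries were scaled to equal FPKM sums. Id3 was at 265.1, 222.0 and 225.9 FPKM in the soft and 242.7, 236.5 and 248.3 FPKM in the stiff gel. The stiff libraries all lay inside the soft range, whose upper end was soft replicate 1. The log2 fold change of Id3 was 0.03 (95% interval -0.14 to 0.21, adjusted p = 0.880), and it was -0.02 both when libraries were scaled to equal FPKM sums and after quantile normalization.

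Id2 was the most variable Id gene, at 10.5, 13.2 and 10.4 FPKM in the soft and 9.33, 13.0 and 10.7 FPKM in the stiff gel. Replicate 2 was the highest in each group. The coefficient of variation was 14.0% in soft and 16.8% in stiff, against 5.99% and 6.17% from counting. The log2 fold change was -0.04 (95% interval -0.36 to 0.27, adjusted p = 0.915) and was above 0 without soft replicate 2 or stiff replicate 1, at 0.06 in each case. Id3 made up 82.4% to 85.1% of the summed FPKM of the 3 Id genes in soft and 82.9% to 84.2% in stiff gel. The sum itself was 269.3 to 311.4 FPKM in the soft and 285.2 to 294.8 FPKM in the stiff gel.

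Smad6 encodes an inhibitory Smad that is induced by BMPs and blocks their receptors' signal. Its FPKM was 32.2, 25.9 and 30.1 in soft and 31.9, 26.9 and 30.2 in stiff gel. The groups covered almost the same range, with replicate 2 the lowest of each. The log2 fold change was 0.02 (95% interval -0.21 to 0.24, adjusted p = 0.964), and -0.03 at equal FPKM sums. For the 4 target and feedback genes, the intervals reached from -0.36 at the lowest to 0.27 at the highest on the log2 scale, both set by Id2.

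**Figure D3:**
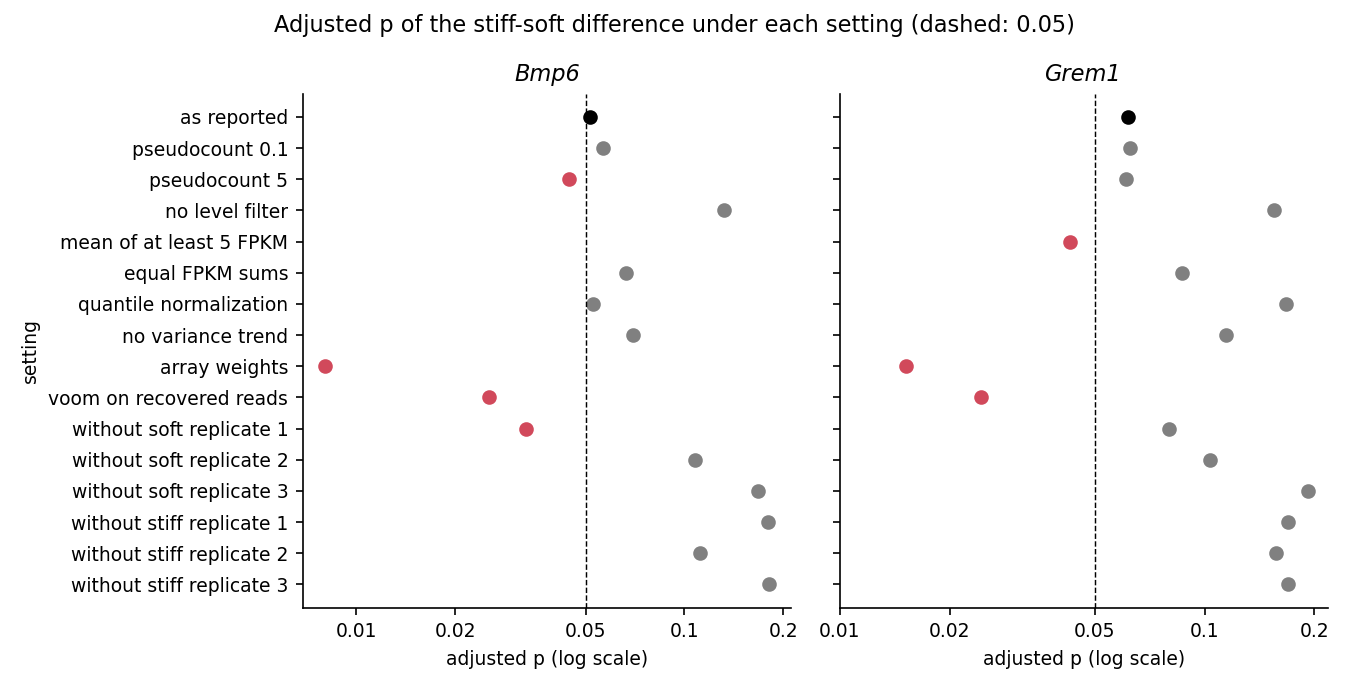
Benjamini-Hochberg adjusted p (log axis) of the difference between stiff and soft gel for Bmp6 and Grem1, as reported (black) and under other settings, red where it is under 0.05 (dashed line) and grey where it is not. The setting with the replicate number as a block is not plotted, and its values are given in the last section. Bmp6 has no point at a mean of at least 5 FPKM, since its own mean was lower, and both genes moved across the line with array weights (0.00803 and 0.0152) and with voom on recovered reads (0.0254 and 0.0243).

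The other 66 genes listed for the pathway were all in the table, and 41 of them were at a mean of 1 FPKM or more. Of these 41, 2 rose and none fell in stiff gel with limma, where 1.01% of all genes tested rose and 0.425% fell. At an unadjusted p under 0.05 there were 7, against 15.4% of all genes tested. Voom called 2 higher and 0 lower, where it called 1.49% of all genes tested higher and 1.01% lower. The median log2 fold change of the 41 was 0.02, with 23 above 0 and 18 below. The 2 that rose were both secreted binders. Fstl1, a follistatin-related glycoprotein, was at 338.8, 352.7 and 352.8 FPKM in the soft and 437.3, 445.5 and 430.7 FPKM in the stiff gel. Its groups lay far apart relative to their spread, with a log2 fold change of 0.33 (SE 0.0435, adjusted p = 0.0198). Chrdl1, a chordin-like BMP antagonist, was at 2.92, 2.74 and 3.50 FPKM in the soft and 5.17, 5.18 and 4.79 FPKM in the stiff gel. Its log2 fold change was 0.58 (SE 0.0989, adjusted p = 0.0433). Chrdl1 did not pass when any single library was left out (adjusted p between 0.0797 and 0.163), and Fstl1 passed only without soft replicate 1 (0.0284 there, 0.0754 to 0.105 without each of the others). The adjusted p of Chrdl1 was also above the threshold with equal FPKM sums (0.05998) and with no level filter (0.109), and that of Fstl1 after quantile normalization (0.0502) and without the variance trend (0.0682).

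**Figure D4:**
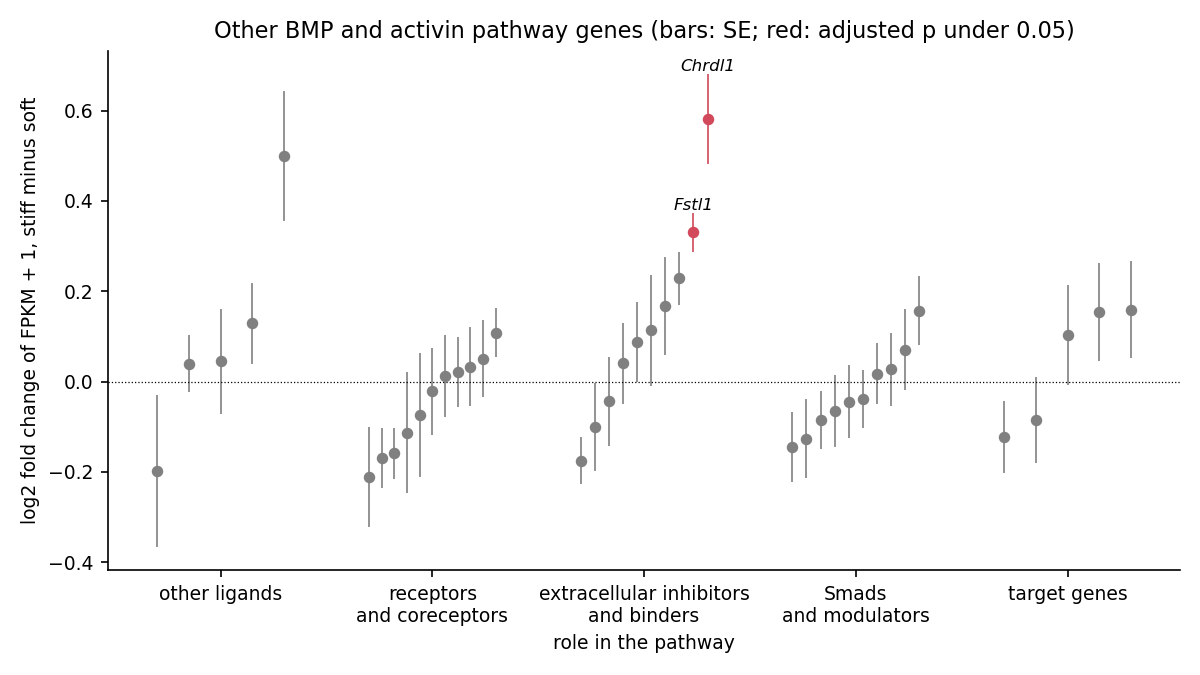
Log2 fold change of FPKM + 1 in stiff against soft gel for the 41 other pathway genes at 1 FPKM or more, by role, with the SE of the limma fit as bars. The 2 red points, Fstl1 and Chrdl1 among the extracellular inhibitors and binders, passed an adjusted p of 0.05, and the 39 grey ones did not.

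Extracellular inhibitors and binders had 10 of 15 members tested, with a median log2 fold change of 0.10. Besides Fstl1 the most abundant was Nbl1, another DAN family antagonist, at 326.5 ± 8.09 FPKM in the soft and 289.3 ± 13.9 FPKM in the stiff gel, a log2 fold change of -0.17 (adjusted p = 0.184). The classical BMP antagonist genes Nog and Chrd were low, at 4.46 and 4.32 FPKM and at 2.38 and 2.79 FPKM in the soft and stiff gel, and neither passed (adjusted p = 0.882 and 0.515). Nog and Chrd were picked for mention after their values had been seen.

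Of 18 other ligand genes, 5 were tested and none passed with limma (unadjusted p under 0.05 in 1, voom calls 0). Of all genes tested, limma called 1.43% and voom 2.5%, and 15.4% had an unadjusted p under 0.05. The log2 fold changes of the 5 ran from -0.20 to 0.50. The upper end was Bmp3, at 1.73 ± 0.449 FPKM in the soft and 2.84 ± 0.294 FPKM in the stiff gel (limma adjusted p = 0.171). Bmp3 was picked for mention after its values had been seen. The remaining 13 were at 0.420 FPKM or less. The most abundant were Bmp5, at 16.5 ± 2.58 FPKM in the soft and 17.0 ± 1.19 FPKM in the stiff gel, and Inhbb, the beta B activin subunit gene, at 13.0 ± 1.46 and 14.3 ± 0.819 FPKM. Both were thus above Bmp2, per length. Of 14 receptor and coreceptor genes, 11 were tested and none passed with limma (2 at an unadjusted p under 0.05, 0 with voom). The shares of all genes tested were again 1.43% with limma, 15.4% unadjusted and 2.5% with voom. Their log2 fold changes ran from -0.21 to 0.11. The coreceptor gene Tgfbr3, at 39.3 ± 0.988 and 35.1 ± 1.71 FPKM (adjusted p = 0.253), and the type I receptor gene Acvr1, at 24.4 ± 0.869 and 26.3 ± 0.397 FPKM (adjusted p = 0.401), were the most abundant.

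Among 11 genes of Smads and their modulators, 10 were tested and none passed with limma (unadjusted p under 0.05 in 0, voom calls 0), with log2 fold changes from -0.14 to 0.16. Ski, a Smad corepressor, was at 55.1 ± 6.53 FPKM in the soft and 50.1 ± 2.02 FPKM in the stiff gel, and Smad4, the shared partner of receptor Smads, at 36.3 ± 0.897 and 34.2 ± 2.42 FPKM. Of 8 further target genes, 5 were tested and none passed with limma, at an unadjusted p under 0.05 (0) or with voom (0). For both roles the shares of all genes tested were 1.43% with limma, 15.4% unadjusted and 2.5% with voom. Id4 was at 18.2 ± 1.61 and 20.4 ± 2.74 FPKM, and Atoh8 at 9.25 ± 1.52 and 9.94 ± 0.580 FPKM. The log2 fold changes of the 5 ran from -0.12 to 0.16.

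In the table's coordinates, whose build it does not name, Grem1 (ENSRNOG00000026053) lies on chromosome 3 from 105203309 to 105214989, Bmp6 (ENSRNOG00000013717) on chromosome 17 from 26955142 to 27112820, Id1 (ENSRNOG00000021750) on chromosome 3 from 148215540 to 148216718 and Id3 (ENSRNOG00000026124) on chromosome 5 from 154489590 to 154491223. These coordinates are not interchangeable with those of GRCr8 given for the sequences. Of the 10 genes only Bmp6 overlapped another row of the table, the uncharacterized AABR07027377.1 on the same strand that was listed at 0 in all 6 libraries.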

How the data were processed

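PolyA RNA was measured in 3 soft and 3 stiff libraries. Per the file headers and labels, the deposited table held FPKM per gene and library. Cufflinks 2.1.1, Bowtie 0.12.9 and HTSeq are listed in the submitters' processing notes, with the mouse builds GRCm38 and mm10, although the identifiers are those of rat and no build is named in the table. How strand and multiply mapped reads were treated was not given in the sources used here. Multiplied by gene length, 100% of FPKM values were whole multiples (within 0.0001) of a step fixed for the library, which gave the reads used for depth and for voom. At 1 kb, 3 reads correspond to 0.179 to 0.201 FPKM.

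Genes whose mean reached 1 FPKM were tested on log2(FPKM + 1) with limma 3.58.1 in R 4.3.3. The model held the group alone, with a variance trend on intensity; tests were two-sided and adjusted by Benjamini-Hochberg over all genes tested. No 2 libraries of a group agreed within sampling noise (chi-square per degree of freedom of 3.71 or more). All 10 members were named. Of other pathway genes, those called and the 2 most abundant of each role were named. Members and lists were chosen with earlier results of these data known. Alternatives changed the pseudocount, level filter, scaling, variance model, weights, block, reads and libraries used.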

Additional observations from a re-analysis of the deposited data

How the results depend on the processing

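Results were recomputed under 16 alternative settings, of which 1, a mean of at least 5 FPKM, left Bmp4, Bmp6 and Chrdl1 untested. Bmp6 passed with a pseudocount of 5 (log2 fold change 0.44, adjusted p = 0.0443), array weights (0.85), voom on recovered reads (0.99) and the replicate number as a block (0.80, adjusted p = 0.0460), and ranged from 0.66 to 0.93 when 1 library was left out. Grem1 passed at a mean of at least 5 FPKM (0.41, adjusted p = 0.0427), with array weights (0.35), voom (0.39) and the replicate block (0.41, adjusted p = 0.0474), and ranged from 0.33 to 0.46 when 1 library was left out. Neither changed direction, and Bmp2, Bmp4, Inhba and Fst kept their direction and passed in none. So 1 of the 10 genes was called higher at a pseudocount of 5, where 129 of all 12713 genes tested were. At a mean of at least 5 FPKM it was 1, with Bmp4 and Bmp6 untested, against 155 of 8882. It was 2 with array weights (430 of 12713), with voom (190 of 12713) and with the replicate block (78 of 12713). When 1 library was left out it was 0 to 1, against 19 to 116 of 12713. None was called lower in any setting, where 7 to 255 of all genes tested were.

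Differences near 0 turned: at equal FPKM sums to -0.0099 for Id1, -0.016 for Id3, -0.033 for Smad6 and -0.0018 for Bmp5; after quantile normalization to -0.017 for Id3; with voom to -0.0022 for Smad6; and with array weights to -0.075 for Bmp5. With 1 library left out, Id2 ranged from -0.16 to 0.059, Id3 from -0.013 to 0.11, Smad6 from -0.071 to 0.082 and Bmp5 from -0.084 to 0.11. Of the other pathway genes, 2 were called as reported, 3 with array weights, 1 at a mean of at least 5 FPKM, where Chrdl1 was not tested, and 1 with no level filter, at equal FPKM sums, after quantile normalization, without a variance trend and with the replicate block (Chrdl1 adjusted p = 0.0918), and 0 to 1 when 1 library was left out. The counts over all genes in each of these settings are given above or in the next paragraph. The causes were not tested, other than that fewer libraries or a different number of genes entered some fits.

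The labels share replicate numbers between groups but do not say that a number marks a shared source. Deviations of same-numbered libraries correlated from -0.078 to 0.12 across genes, and 1 of 3 soft libraries correlated best with its own number, so the numbers are not taken to pair the samples. Over all genes the block called 78 higher and 27 lower, against 128 and 54 without it. Array weights called 430 and 255, voom 190 and 128, no level filter 71 and 21, and no variance trend 85 and 27. At equal FPKM sums the split was 88 higher and 68 lower, and after quantile normalization 103 and 68. Depth limits Bmp4 and Bmp6 most.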
